A study of Mus musculus with 3 samples.

Results

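C2C12 myotubes labelled as a Drp1 knockout that transiently expressed FLAG-Drp1 (rescue) were compared with wild-type C2C12 myotubes (WT), to record what stayed different from WT, or passed beyond it, after re-expression. The comparison used 2 of the 3 libraries of the study, with 1 library per side. The library of knockout cells without FLAG-Drp1 (KO) was read beside them as a reference. For each gene symbol the transcript row with the highest count summed over the 3 libraries stood for the gene, and genes with a mean CPM (count relative to library size) of 1 or more were kept, which left 13382 of 46316 gene symbols.

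C2C12 is an immortalised mouse myoblast line whose cells fuse into multinucleated myotubes when serum is withdrawn. All 3 libraries came from cells on day 4 of myogenic differentiation. FLAG is a short peptide tag, and the rescue cells carried the knockout genotype together with tagged Drp1. How the knockout was made, whether it was 1 clone, how many cells took up FLAG-Drp1 and which species its coding sequence came from were not given in the sources used here. The labels name no control construct in WT or KO. Without replicates, every comparison below is between individual libraries and has no measure of biological spread. WT, KO and rescue stand for the libraries that carry those labels.

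Drp1 is a dynamin-family GTPase that gathers on the outer mitochondrial membrane and constricts it until the organelle divides. Muscle fibres differ in their myosins, their calcium handling and their reliance on glycolysis or mitochondrial oxidation, and the title of the study names mitochondrial dynamics, fibre type and metabolism. Cells with disturbed mitochondria commonly engage the integrated stress response, in which the transcription factor ATF4 raises genes of amino acid synthesis and uptake and the secreted factors FGF21 and GDF15.

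Dnm1l, the gene of Drp1, was read first as a check on the labels. It had 1823 (WT), 1284 (KO) and 1481 (rescue) counts, and counts are listed in that order throughout. The rescue library therefore stood between the others and 1.21-fold below WT, with a log2 ratio of -0.27 and a 95% counting interval of -0.37 to -0.17. Total Dnm1l RNA decides neither label, because a disrupted gene can still be transcribed and because it is not given whether reads of the FLAG-Drp1 transcript could be counted. Totals over genes were nearly equal, at 13894114 counts for WT, 13790417 for KO and 13925296 for rescue. Markers of differentiated myotubes were abundant in all 3. Myog, myogenin, had 11853 counts in WT and 17277 in rescue, and Myh3, embryonic myosin heavy chain, had 50576 and 77629. Acta1, Tnnt3 and Mymk of the same marker set were also above WT in rescue. Ckm, Des, Ttn and Atp2a1 were below it, with log2 ratios of -0.29, -0.32, -0.14 and -0.43. Pax7, which marks quiescent satellite cells, had 3 counts in WT and 4 in rescue. The other myoblast markers were present and higher in WT. Myf5 had 949 counts in WT and 570 in rescue, Myod1 had 1476 and 1174, and the proliferation marker Mki67 had 1697 and 1292.

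Of the 13382 genes, 614 were at least 2-fold higher in rescue than in WT (4.59%) and 411 were at least 2-fold lower (3.07%). Every count of list members past 2-fold given below is to be read beside these shares over all genes. For 293 higher genes (2.19%) and 187 lower genes (1.40%) the whole counting interval was beyond 2-fold. Most of the transcriptome was close to WT, since 10921 genes (81.6%) were within 1.5-fold and the median log2 ratio over all genes was 0.01. Large differences were few. At 4-fold or more there were 153 higher and 121 lower genes, and at 8-fold or more 53 and 54. Of the 1025 genes past 2-fold, 530 had under 100 counts in the higher library, and 141 were not protein-coding.

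KO against WT, which shares the WT library, had 716 genes past 2-fold above WT (5.35%) and 545 past 2-fold below it (4.07%). The genes past 2-fold in rescue were sorted by where KO lay. In 489 of the 614 higher genes (79.6%) and 312 of the 411 lower genes (75.9%), KO was also at least 2-fold from WT on the same side. In 112 higher genes (18.2%) and 94 lower genes (22.9%), KO lay on the same side but under 2-fold, so rescue was farther from WT than KO was. Only 48 of the 112 and 28 of the 94 had 100 or more counts in the higher of WT and rescue. This class was set by the 2-fold cutoff alone, and some members lay near it in both libraries. Gadd45a, for example, had log2 ratios of 0.98 in KO and 1.07 in rescue. In 13 higher genes (2.12%) and 5 lower genes (1.22%), KO lay on the other side of WT. These last genes are called overshooting here. The side was read from the sign of the KO ratio alone, without regard to counting error. Myl2 and Myh6 were therefore counted as overshooting and Smpx and Mybpc2 were not, although KO was near WT in all of them. For Gm5611 the KO interval ran from -0.01 to 0.5, so the counts do not settle its side. Among all higher genes the median log2 ratio to WT was 1.53 in KO and 1.46 in rescue, and among all lower genes it was -1.55 and -1.48. Both ratios use the same WT library, so they are given side by side as a description.

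The classes have edges. Dgka, a diacylglycerol kinase, at 374 counts in WT and 737 in rescue, and Vegfa, the vascular growth factor, at 1684 and 3318, lay just inside 2-fold with log2 ratios of 1.01. Col16a1 (301 and 590 counts) and Slc1a5 (282 and 553 counts) lay just outside, at 1.0 after rounding. On the lower side the cell cycle genes Foxm1 (760 and 372 counts) and Smc2 (846 and 411 counts) were just inside, and Slc4a2 (1853 and 910 counts) and E2f8 (752 and 369 counts) just outside.

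**Figure D1:**
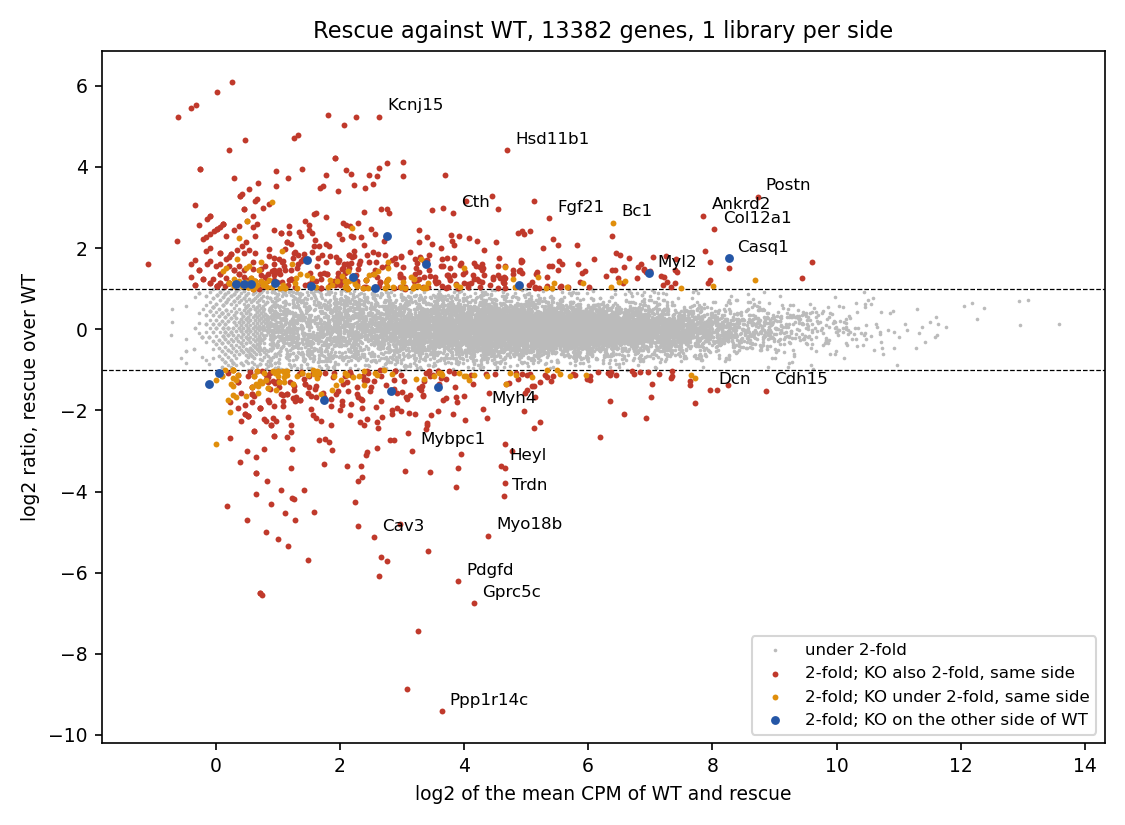
Log2 ratio of rescue over WT (vertical axis) against the log2 of the mean CPM of the 2 libraries (horizontal axis) for 13382 genes, 1 point per gene; dashed lines mark 2-fold, and colours give where KO lay. Most coloured points are the 801 genes in which KO was also 2-fold from WT, and the 18 genes with KO on the other side of WT include Casq1 and Myl2.

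The most abundant genes that overshot belonged to the calcium store and the thick filament of muscle. Casq1, calsequestrin 1, the main calcium buffer in the sarcoplasmic reticulum of fast fibres, had 1972 (WT), 1318 (KO) and 6534 (rescue) counts. It was 3.38-fold higher in rescue than in WT (log2 ratio 1.76, interval 1.68 to 1.83), while KO was below WT. Its cardiac and slow-fibre relative Casq2 had 10378, 12716 and 17569 counts and was 1.73-fold higher (log2 ratio 0.79, interval 0.75 to 0.82). The increase was not general to calcium storage and uptake. Atp2a1, the fast-fibre SERCA pump, had 7107 (WT), 3802 (KO) and 5185 (rescue) counts and remained 1.34-fold below WT. Of the 8 measured genes of the calcium store and pump list, Casq1 was the only one past 2-fold, and the list's median log2 ratio was -0.22, beside 0.01 over all genes. Exons of Casq1 overlap those of Gm17224 on the other strand, and the strand setting of the counting is not known here.

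Among slow and cardiac thick-filament genes, Myl2, Myh6 and Myh7 were also highest in rescue, whereas Mybpc1 and Myh7b, given further on, were not. Myl2, the slow and cardiac regulatory myosin light chain, had 976 (WT), 925 (KO) and 2504 (rescue) counts, which was 2.62-fold above WT (log2 ratio 1.39, interval 1.28 to 1.5). Myh6, alpha cardiac myosin heavy chain, had 263, 249 and 555 counts and was 2.15-fold higher (log2 ratio 1.10, interval 0.89 to 1.32). In both genes KO was within 1.04-fold of WT. Myh7, the slow-fibre myosin heavy chain, had 822, 741 and 1584 counts and fell just short of 2-fold (1.96-fold, log2 ratio 0.97, interval 0.85 to 1.10). Myh6 and Myh7 are close copies, so reads that match both could be split between them in an unknown way. Exons of Myl2 overlap those of Ccdc63 on the other strand.

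Other overshooting genes with 100 or more counts were Padi2, Ly6g2 and Srp54b above WT and H2-T-ps and Gm5611 below it. Padi2, which converts arginine in proteins to citrulline, had 72 (WT), 41 (KO) and 216 (rescue) counts (log2 ratio 1.61, interval 1.22 to 2.02). Ly6g2 had 32, 28 and 155 counts, and Srp54b, a copy of a signal recognition particle gene, had 55, 16 and 109. The lower pair were H2-T-ps, of the histocompatibility region, with 148, 164 and 50 counts, and the predicted locus Gm5611 with 244, 284 and 89. H2-T-ps was classed as protein-coding, and its exons overlap Gm7030 on the same strand and BC023719 on the other strand. Entpd4b, chosen after its values were seen, had 73, 110 and 21 counts. Srp54b, H2-T-ps and Entpd4b have near copies in the mouse genome, and their counts are uncertain for that reason.

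Several muscle genes that lay near WT in KO were 2-fold or more above WT in rescue. Mybpc2, fast myosin binding protein C, had 230 (WT), 251 (KO) and 534 (rescue) counts and was 2.36-fold higher (log2 ratio 1.24, interval 1.02 to 1.47). Smpx, a small protein of the costamere, had 529, 544 and 1144 counts and was 2.2-fold higher. Ankrd23, a titin-binding ankyrin repeat protein, had 386, 488 and 827 counts and was 2.18-fold higher. Each of the 3 had a KO level within 1.29-fold of WT. Cd36, the fatty acid translocase, had 182, 217 and 520 counts (log2 ratio 1.54, interval 1.30 to 1.79), and Ucp3, the muscle uncoupling protein, had 38, 37 and 91 (log2 ratio 1.28, interval 0.73 to 1.87). The brain cytoplasmic RNA Bc1, a short noncoding transcript, is no muscle gene and was already 1.89-fold above WT in KO, with 328 (WT), 608 (KO) and 2000 (rescue) counts (6.21-fold, log2 ratio 2.63, interval 2.47 to 2.81). Myh13, the extraocular myosin, was chosen after its values were seen and had 50, 57 and 141 counts.

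**Figure D2:**
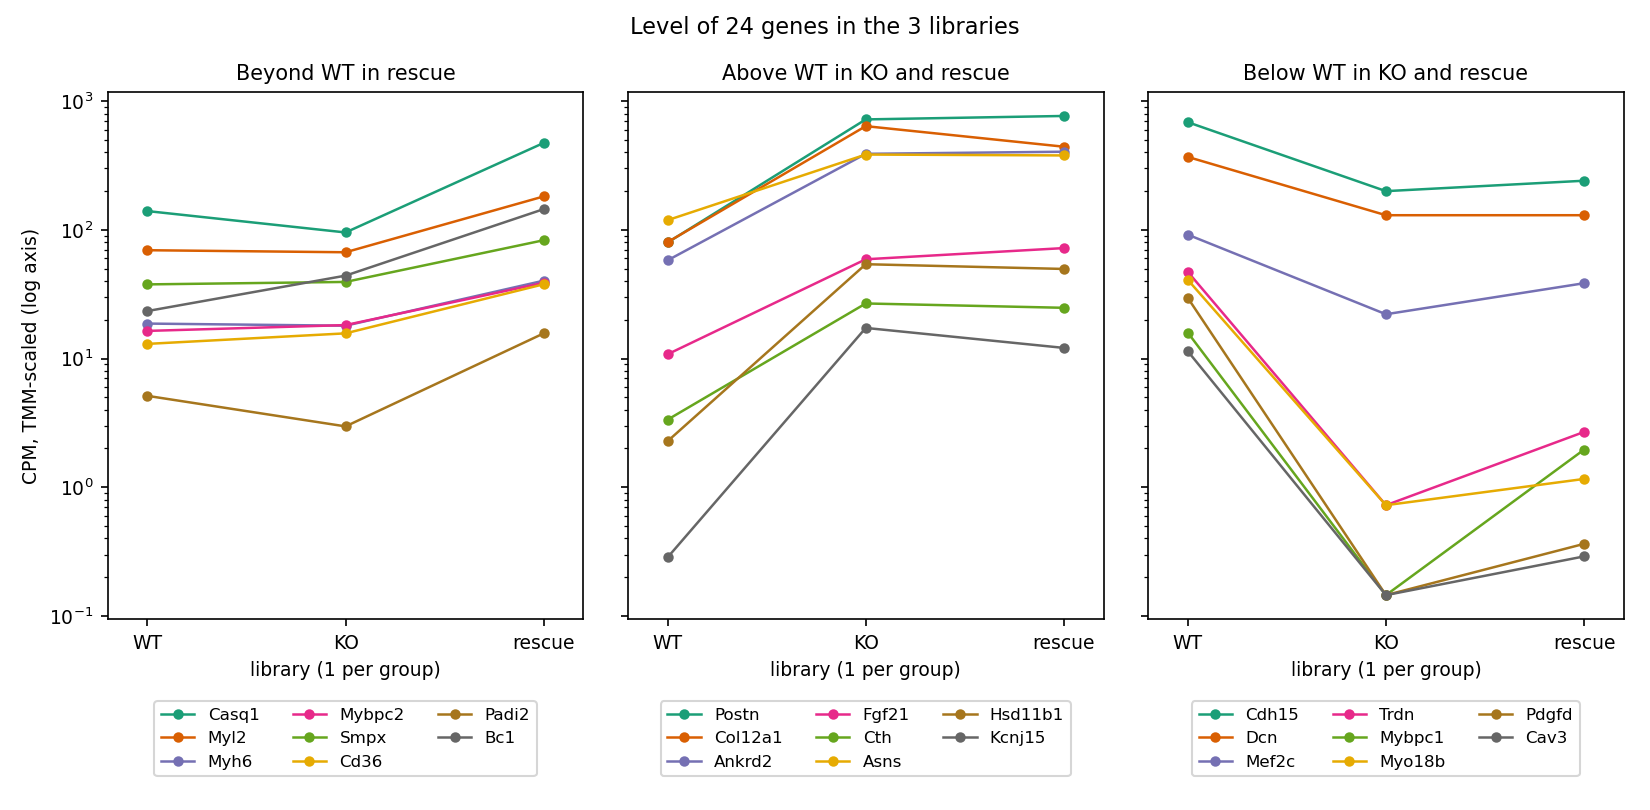
Level of 24 genes in WT, KO and rescue in TMM-scaled CPM on a log axis, 1 library per group; lines join the 3 libraries of a gene. In the left panel the rescue point is above both other libraries, and in the middle and right panels KO and rescue are on the same side of WT. Their levels differ for some genes. Rescue was nearer to WT than KO was for genes such as Mybpc1, Trdn, Mef2c, Cdh15, Col12a1 and Kcnj15. Rescue was farther from WT than KO was for Postn, Ankrd2 and Fgf21.

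The fast-fibre myosin heavy chains Myh4, Myh1 and Myh2 were below WT in rescue, and 8 of the 13 measured genes of the fast sarcomere list were above it. Myh4, the IIb myosin heavy chain of the fastest fibres, had 441 (WT), 31 (KO) and 111 (rescue) counts, 3.88-fold below WT (log2 ratio -1.96, interval -2.28 to -1.66). Myh1, the IIx form, had 3941, 441 and 2327 counts and stood 1.66-fold below WT (log2 ratio -0.73, interval -0.81 to -0.66). The rescue levels of both stood between KO and WT. Myh2, the IIa form of fast oxidative fibres, had 373 (WT), 371 (KO) and 279 (rescue) counts, and here rescue was the lowest. Tpm1, a tropomyosin of the thin filament, had 16536, 17954 and 24997 counts, and Actn3, the fast-fibre alpha-actinin, had 9200, 10107 and 12990, so both were above WT, by 1.54-fold and 1.44-fold. Over the 13 measured members of the fast sarcomere list the median log2 ratio was 0.40 in rescue and -0.33 in KO, with 1 member at least 2-fold higher (Mybpc2) and 1 lower (Myh4). Reads shared by the neighbouring genes Myh1, Myh2 and Myh4 could be split between them.

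The myosin mixture can be compared between genes once counts are divided by transcript length. On that scale embryonic Myh3 made up 88.9% of the myosin heavy chain signal in WT, 97.0% in KO and 93.8% in rescue. Myh1 made up 6.96%, 0.690% and 2.82%, and Myh4 0.778%, 0.0485% and 0.135%. Slow Myh7 stood at 1.39% in WT, 1.11% in KO and 1.84% in rescue. The slow form Myh7b went the other way, at 0.209% in WT, 0.0237% in KO and 0.0577% in rescue. The rescue library thus held a smaller share of Myh1, Myh4 and Myh7b than WT and a larger share of Myh3 and Myh7. Neonatal Myh8 had 333 (WT), 44 (KO) and 150 (rescue) counts and remained 2.17-fold below WT (log2 ratio -1.12, interval -1.41 to -0.84). In the embryonic and neonatal list, with a median of 0.14 over 9 measured genes, Myh8 was the only member past 2-fold below WT and Igf2 the only one above.

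In the slow and cardiac list 2 of 12 measured members were 2-fold or more above WT and 2 below, around a median of 0.49 (-0.18 in KO). Besides Myl2 and Myh6 these were Mybpc1 and Myh7b. Mybpc1, slow myosin binding protein C, had 223 (WT), 2 (KO) and 27 (rescue) counts, which left it 7.97-fold below WT (log2 ratio -2.99, interval -3.65 to -2.44). Myh7b, a slow myosin with an intronic microRNA, had 117, 15 and 47 counts (log2 ratio -1.28, interval -1.81 to -0.79). Actc1, cardiac actin, had 16033, 15957 and 26634 counts and was 1.69-fold higher. Slow-fibre genes therefore lay on both sides of WT.

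Promoters of 4 sarcomere and calcium-store genes from both sides of WT are shown because they were past 2-fold from WT and hold the hexamer CAGCTG, an E-box of the kind bound by MyoD and myogenin, in the bases before their start. They were picked for holding it. The windows are the 250 bases upstream of a RefSeq transcript start in the build GRCm38.p6, written 5′ to 3′ on the strand of the gene, with the hexamer in capitals. They lie at chr1:172219896-172220145 for Casq1 (minus strand), chr5:122092939-122093188 for Myl2 (plus strand), chr11:67237562-67237811 for Myh4 (plus strand) and chr10:88605153-88605402 for Mybpc1 (minus strand).
Casq1: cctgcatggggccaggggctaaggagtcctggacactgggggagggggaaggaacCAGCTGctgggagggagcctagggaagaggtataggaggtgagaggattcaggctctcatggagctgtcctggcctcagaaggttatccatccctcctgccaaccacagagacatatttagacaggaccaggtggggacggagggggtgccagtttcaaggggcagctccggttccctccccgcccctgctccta
Myl2: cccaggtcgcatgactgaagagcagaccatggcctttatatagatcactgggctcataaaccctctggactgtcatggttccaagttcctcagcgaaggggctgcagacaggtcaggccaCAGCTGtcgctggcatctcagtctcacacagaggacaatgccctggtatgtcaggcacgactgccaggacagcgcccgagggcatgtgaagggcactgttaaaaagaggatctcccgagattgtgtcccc
Myh4: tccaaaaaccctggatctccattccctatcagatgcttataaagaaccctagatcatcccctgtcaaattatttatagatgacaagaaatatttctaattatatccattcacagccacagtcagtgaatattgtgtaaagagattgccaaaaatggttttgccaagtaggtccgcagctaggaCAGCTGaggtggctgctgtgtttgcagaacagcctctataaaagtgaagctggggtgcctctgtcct
Mybpc1: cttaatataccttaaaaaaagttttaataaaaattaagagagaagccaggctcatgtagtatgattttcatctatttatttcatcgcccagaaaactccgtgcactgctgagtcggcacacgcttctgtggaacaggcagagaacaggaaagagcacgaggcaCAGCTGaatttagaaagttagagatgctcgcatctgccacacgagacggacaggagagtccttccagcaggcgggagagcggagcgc

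The hexamer reads the same on both strands. It occurred upstream of 13 of 28 genes with a window in the fast, slow and calcium-store lists (46.4%), against 1440 of 9936 kept genes with a window (14.5%). Among the 7 of these list members past 2-fold, 4 held it, and Casq1 and Myl2 were above WT while Myh4 and Mybpc1 were below. The other 3, Mybpc2, Myh6 and Myh7b, had no match in their windows. A match describes the letters and is neither a binding site nor a cause. The lists hold muscle genes, so their higher share says nothing about KO or rescue. The motif was chosen after the gene values were seen.

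Z-disc and stretch-sensing genes were spread over the widest range of the muscle lists. Ankrd2, a stretch-responsive ankyrin repeat protein of the Z-disc and nucleus, had 815 (WT), 5380 (KO) and 5579 (rescue) counts. It was 6.98-fold above WT in rescue (log2 ratio 2.80, interval 2.70 to 2.91), at the level of KO. Its relative Ankrd1 had 13446, 22407 and 24923 counts and was 1.89-fold higher. Myo18b, an unconventional myosin needed to assemble sarcomeres, had 574, 10 and 16 counts and stayed 34.1-fold below WT (log2 ratio -5.09, interval -5.95 to -4.42). Tcap, telethonin, was chosen after its values were seen and went from 155 counts in WT to 36 in KO and 222 in rescue, so its rescue level was 1.46-fold above WT. In this list 3 of 18 measured members were 2-fold or more above WT and 1 below, with a median of 0.28. Among 19 thin-filament and giant-protein genes (median 0.15) only Nrap, which anchors thin filaments at growing myofibril ends, passed 2-fold, with 838, 2444 and 2808 counts (3.42-fold, log2 ratio 1.77, interval 1.66 to 1.89).

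Triadin and muscle caveolin remained far below WT. Trdn, triadin, links calsequestrin to the calcium release channel, and it had 663 (WT), 10 (KO) and 37 (rescue) counts. The rescue level was above KO and 17.4-fold lower than WT (log2 ratio -4.12, interval -4.65 to -3.66). Cav3, the muscle caveolin of the surface membrane, had 160 (WT), 2 (KO) and 4 (rescue) counts (35.0-fold lower, log2 ratio -5.13, interval -7.19 to -3.91). None of the other 16 measured genes of excitation-contraction coupling passed 2-fold, and Jph2, a junctophilin of the triad, had 4490, 6556 and 6795 counts. In the dystrophin and caveolae list (median -0.03, 21 measured) Cavin2, a caveolar coat protein, was the other member past 2-fold, with 4047, 1754 and 1526 counts (log2 ratio -1.38, interval -1.46 to -1.29). Dag1, dystroglycan, had 10997, 6662 and 6797 counts and was 1.59-fold below WT.

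Neuromuscular junction genes had a median of 0.03 over 14 measured. Agrn, agrin, which clusters acetylcholine receptors, had 1487 (WT), 3813 (KO) and 2988 (rescue) counts (log2 ratio 1.03, interval 0.94 to 1.13). Etv5, a transcription factor of the synapse region, had 141, 420 and 350 counts. These 2 were the only members past 2-fold, beside 4.59% higher and 3.07% lower over all genes. Colq, which anchors acetylcholinesterase, had 142, 14 and 78 counts, so most of the gap seen in KO was not present in rescue (1.78-fold below WT).

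Among 20 measured myogenic factors 1 was 2-fold or more above WT and 3 below, beside 4.59% and 3.07% over all genes. Eya4, a coactivator of homeodomain factors, was the higher one, with 883 (WT), 2660 (KO) and 2428 (rescue) counts (log2 ratio 1.49, interval 1.38 to 1.60). Mef2c, which drives genes of the differentiated fibre, had 1289, 305 and 530 counts and stood 2.38-fold below WT (log2 ratio -1.25, interval -1.40 to -1.11). Hdac9, a deacetylase that restrains Mef2 factors, had 179, 39 and 55 counts (log2 ratio -1.67), and Id2, an inhibitor of E-box binding factors, had 104, 39 and 43 (log2 ratio -1.24). The factors that define the lineage were nearer to WT. Myog was 1.49-fold higher (log2 ratio 0.57, interval 0.54 to 0.61), and Myod1 had 1476, 990 and 1174 counts (log2 ratio -0.30, interval -0.41 to -0.19).

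Genes of satellite cells and myoblasts had a median of -0.42 over 15 measured genes, with 2 lower and none higher at 2-fold. Heyl, a Notch target, had 622 (WT), 64 (KO) and 58 (rescue) counts, 10.4-fold below WT (log2 ratio -3.38, interval -3.81 to -3.0). Cxcr4, the chemokine receptor of migrating myoblasts, had 213, 65 and 68 counts (log2 ratio -1.61, interval -2.03 to -1.22). Fusion and adhesion genes had a median of -0.08. Cdh15, M-cadherin, a cell contact protein of myoblasts and among the most abundant genes in the lower set, had 9651, 2756 and 3318 counts (2.85-fold lower, log2 ratio -1.51, interval -1.57 to -1.46). Adam12, a membrane protease of fusing myoblasts, was the 1 higher member, with 84, 198 and 201 counts. Mymk, the fusion protein myomaker, was at 10136, 8428 and 10593 counts (log2 ratio 0.09).

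**Figure D3:**
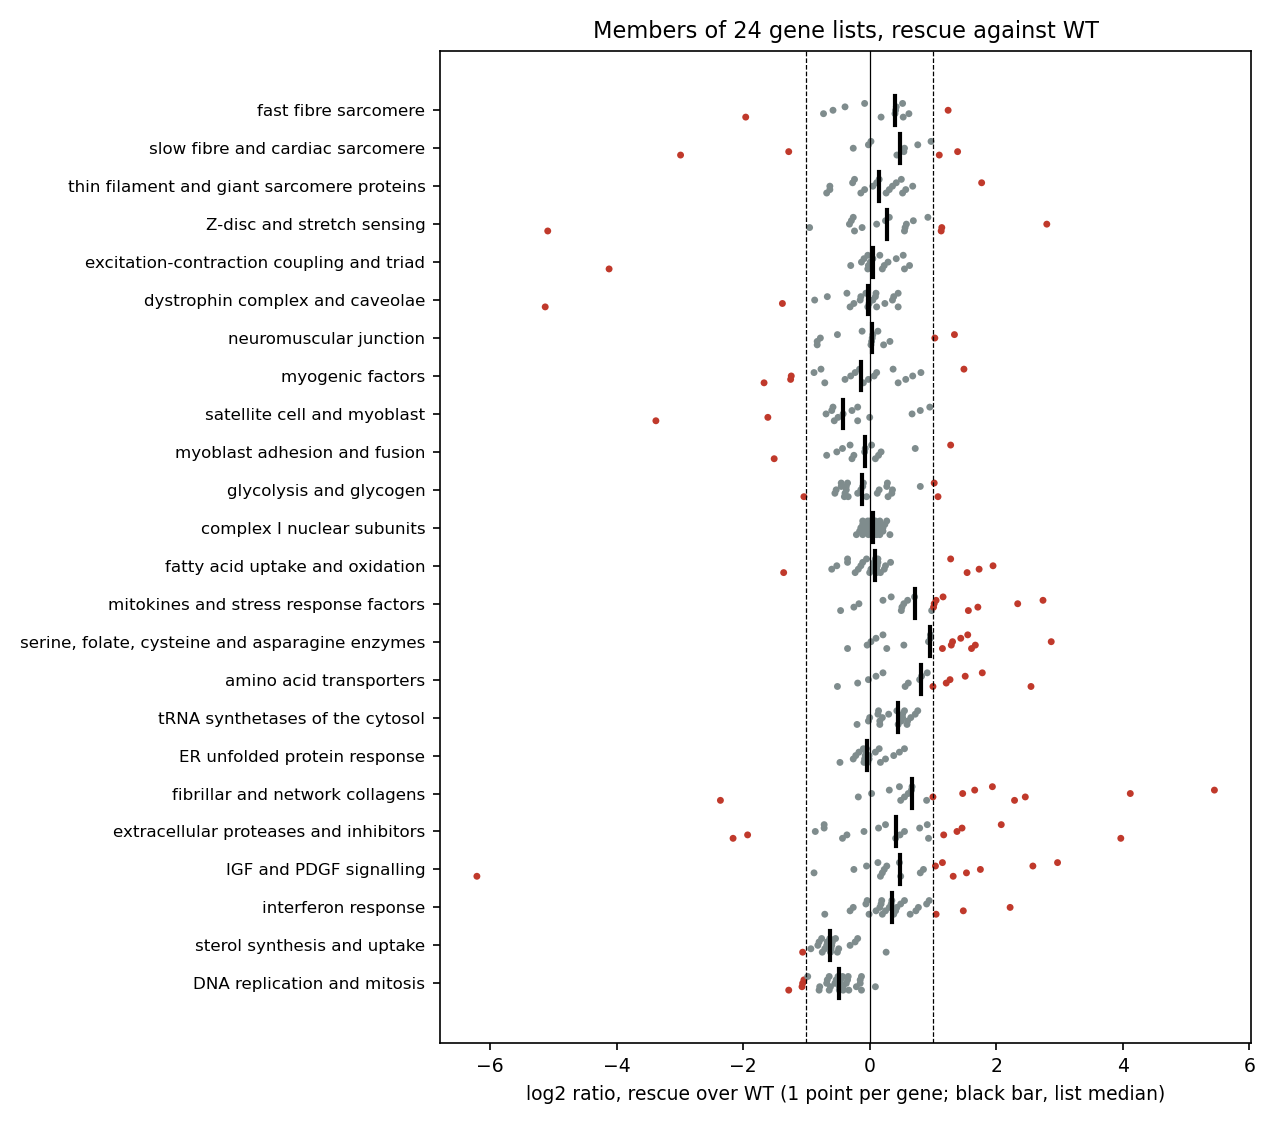
Log2 ratio of rescue over WT for the measured members of 24 gene lists, 1 point per gene, with the list median as a black bar, 2-fold as dashed lines and members past 2-fold in red. The amino acid stress and collagen lists sit to the right of 0, the sterol and DNA replication lists to the left, and the complex I list is narrow around 0.05.

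Many genes of the amino acid and mitochondrial stress response had more RNA in rescue than in WT, as they had in KO. The source of this difference was not tested. Fgf21, a hormone secreted by stressed muscle and liver, had 151 (WT), 815 (KO) and 994 (rescue) counts. The rescue library was 6.69-fold above WT (log2 ratio 2.74, interval 2.5 to 3.0) and was the highest of the 3. Gdf15, the second stress hormone, had 270, 582 and 549 counts and was 2.07-fold higher (log2 ratio 1.05, interval 0.84 to 1.27). Trib3, a pseudokinase induced by ATF4, had 145, 836 and 720 counts (5.05-fold). The transcription factor Atf3 had 199, 762 and 640 counts, and Chac1, which degrades glutathione, had 296, 906 and 854. In the list of stress factors 8 of 19 measured genes were 2-fold or more above WT and none below, with a median of 0.71 beside 0.80 in KO.

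Enzymes that make serine, asparagine, cysteine and proline moved in the same direction. Cth, which makes cysteine from cystathionine, had 47 (WT), 370 (KO) and 341 (rescue) counts, 7.33-fold above WT (log2 ratio 2.87, interval 2.44 to 3.36). Asns, asparagine synthetase, had 1677, 5312 and 5223 counts (3.18-fold, log2 ratio 1.67, interval 1.59 to 1.75). Aldh1l2, a mitochondrial folate enzyme, had 801, 3227 and 2399 counts, and Mthfd2, which feeds it, had 967, 2354 and 2565. Phgdh, the entry enzyme of serine synthesis, had 2138, 4499 and 4639 counts (2.21-fold). Of 18 measured enzymes 8 were 2-fold or more above WT and none below, with a median of 0.96 in rescue and 0.98 in KO. The summed level of the list was 1407 CPM in WT, 2873 in KO and 2802 in rescue.

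Amino acid transporters had a median of 0.81 (0.86 in KO), with 5 of 16 at least 2-fold higher. Slc7a5, the light chain of the leucine exchanger, had 2242, 7283 and 6263 counts (2.85-fold), and its heavy chain Slc3a2 had 2100, 5105 and 4770 (2.32-fold). Slc7a3, a cationic amino acid transporter, had 18, 150 and 106 counts, and Slc43a1 had 24, 120 and 82. Cytosolic tRNA synthetases were higher by smaller amounts. None of 20 passed 2-fold, 18 lay above 0 and the median was 0.44, with Rars, the arginine enzyme, at 2132, 3628 and 3537 counts (1.69-fold). The unfolded protein response of the endoplasmic reticulum had a median of -0.04, and none of its 20 genes passed 2-fold. Hspa5, its main chaperone, had 11869, 15950 and 15100 counts (1.30-fold).

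Promoters of 3 stress genes are shown because these genes were far above WT in both KO and rescue and hold the core of the ATF4 element, searched as TGATGNAA on both strands and given in capitals. The windows are again 250 bases in GRCm38.p6 from RefSeq, at chr6:7693210-7693459 for Asns (minus strand), chr2:119350992-119351241 for Chac1 (plus strand) and chr7:45615491-45615740 for Fgf21 (minus strand).
Asns: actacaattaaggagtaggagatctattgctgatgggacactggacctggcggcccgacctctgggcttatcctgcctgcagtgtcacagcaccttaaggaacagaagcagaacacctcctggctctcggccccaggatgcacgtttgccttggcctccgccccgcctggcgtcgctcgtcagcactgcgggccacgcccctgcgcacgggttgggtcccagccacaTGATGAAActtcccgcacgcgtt
Chac1: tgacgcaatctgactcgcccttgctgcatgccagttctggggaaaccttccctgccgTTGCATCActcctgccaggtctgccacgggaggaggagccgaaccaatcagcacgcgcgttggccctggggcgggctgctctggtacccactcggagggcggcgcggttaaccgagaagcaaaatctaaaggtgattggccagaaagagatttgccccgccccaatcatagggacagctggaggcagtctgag
Fgf21: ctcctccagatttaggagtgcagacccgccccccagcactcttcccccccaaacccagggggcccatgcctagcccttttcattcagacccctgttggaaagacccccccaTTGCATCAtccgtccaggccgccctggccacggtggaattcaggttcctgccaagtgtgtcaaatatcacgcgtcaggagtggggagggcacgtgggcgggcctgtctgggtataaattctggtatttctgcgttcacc

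The core began 23 bases before the start in Asns, 193 in Chac1 and 139 in Fgf21. Of 43 genes with a window in the 3 lists of stress factors, enzymes and transporters, 9 held it (20.9%), against 238 of 9936 kept genes with a window (2.40%). The 9 genes were Asns, Atf3, Chac1, Fgf21, Got1, Nupr1, Pycr1, Slc7a11 and Slc7a7. Of the 17 list members past 2-fold with a window, 6 held it. Many genes above WT, such as Cth and Trib3, had no match in these 250 bases, which says nothing about binding elsewhere. The lists hold genes of the kind that ATF4 raises, so their higher share says nothing about KO or rescue. A match is neither a binding site nor a cause. The motif was chosen after the gene values were seen.

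Collagens were mostly higher in rescue than in WT, and other matrix genes lay on both sides. Postn, periostin, a matricellular protein of remodelling tissue, had 1120 (WT), 9959 (KO) and 10578 (rescue) counts, 9.63-fold above WT (log2 ratio 3.27, interval 3.18 to 3.36). Col12a1, a collagen that decorates fibrils, had 1127, 8825 and 6099 counts (5.52-fold, log2 ratio 2.46, interval 2.37 to 2.56). The microfibril collagens Col6a1, with 1370, 7507 and 5164 counts, and Col6a2, with 397, 2694 and 1912, were 3.84-fold and 4.91-fold higher. Col1a1, the main fibrillar collagen, had 5243, 18763 and 16217 counts (3.15-fold). For all these collagens the rescue level was between WT and KO and nearer to KO.

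Of 19 measured collagens 7 were 2-fold or more above WT and 1 below, with a median of 0.67 in rescue and 0.95 in KO, and their summed level was 5664 CPM in WT, 11936 in KO and 9445 in rescue. Col11a1 had 0 (WT), 43 (KO) and 21 (rescue) counts, which was at least 7.14-fold higher in rescue when WT is set to 3 counts. The lower gene was Col14a1, with 44, 14 and 8 counts. Matricellular proteins, fibrils and proteoglycans had a median of 0.37 over 28 genes, 3 higher and 2 lower at 2-fold. Dcn, the small proteoglycan decorin, stood out on the lower side with 5177, 1787 and 1792 counts (2.83-fold, log2 ratio -1.50, interval -1.58 to -1.42), and so did Ccn3, a matricellular protein, with 386, 50 and 35 (10.7-fold, log2 ratio -3.42).

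Matrix proteases had a median of 0.41, with 5 of 21 higher and 2 lower. Mmp2, gelatinase A, had 972 (WT), 2972 (KO) and 2473 (rescue) counts (2.59-fold), and Adamts5, an aggrecanase, had 1332, 3633 and 2947 (2.26-fold). Mme, the membrane peptidase neprilysin, had 10, 267 and 161 counts (log2 ratio 3.97, interval 3.12 to 5.12). Integrins and laminins had a median of 0.23, with 3 of 21 higher and 1 lower. Itga11, a collagen receptor, had 64, 463 and 317 counts, and Itga4, a fibronectin and Vcam1 receptor of myoblasts, had 138, 56 and 39 (log2 ratio -1.78, interval -2.35 to -1.27).

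Markers of other cell types were read beside the matrix genes. In the fibroblast list 9 of 12 genes were measured, 1 at least 2-fold higher (Dpt, with 4, 24 and 24 counts) and 1 lower (Dcn, which also belongs to the proteoglycan list), and their summed level was 3666 CPM in WT, 4635 in KO and 3835 in rescue. Col3a1, which is also in the collagen list, had 29225, 52635 and 40310 counts. Tcf21 was at 0 in all 3 libraries, and Pdgfra had 112, 240 and 191 counts. In the smooth muscle list the summed level was 6925, 6790 and 8090 CPM, and Mylk, myosin light chain kinase, with 148, 1177 and 777 counts, was the 1 of 8 past 2-fold. Adipoq, Cidec, Lep and Ucp1 of fat, Acan, Comp, Alpl and Ibsp of cartilage and bone, Pecam1, Tie1 and Emcn of endothelium, and Ptprc, Adgre1, Tyrobp and Hbb-bs of blood were at 0 in every library. Other members of these lists were present. In the fat list 3 were measured and all lay above 0, with Cebpa past 2-fold at 29, 117 and 101 counts. None of the 3 measured of cartilage and bone, the 1 of endothelium and the 2 of blood passed 2-fold. The summed level of the cartilage and bone list was 686, 780 and 701 CPM. In the blood list Cd68 had 22, 55 and 42 counts and Cd14 had 103, 113 and 109. In bulk RNA a change in the number of cells of a type and a change in RNA per cell cannot be told apart, and the part of other cell types in these results was not tested.

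Growth factor genes were among the largest differences. Igf1, insulin-like growth factor 1, had 21 (WT), 195 (KO) and 165 (rescue) counts, 7.85-fold above WT (log2 ratio 2.97, interval 2.34 to 3.73). Igf2, the fetal form, had 647, 2399 and 2128 counts (3.35-fold), while H19, the noncoding RNA beside it, had 165552, 148140 and 176241 and was within 1.09-fold. Pdgfd, a platelet-derived growth factor, went the other way and stayed nearly silent, with 416 (WT), 2 (KO) and 5 (rescue) counts (74.3-fold, log2 ratio -6.21, interval -7.98 to -5.12). Its receptor Pdgfrb had 803, 2837 and 2274 counts and was 2.89-fold higher. In this list 7 of 20 genes were 2-fold or more above WT and 1 below, with a median of 0.48. Imprinted genes as a list had a median of 0.05 over 8 measured, and Igf2 was the 1 past 2-fold.

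In the TGF-beta family 3 of 24 genes were higher and 2 lower (median 0.19), beside 4.59% and 3.07% over all genes. The activin subunits Inhba (567, 2206 and 1976 counts) and Inhbb (439, 1791 and 1441 counts) were 3.55-fold and 3.34-fold above WT, and Bmp4 had 5, 117 and 99 counts. The type II receptor Tgfbr2 had 3983, 1688 and 1616 counts and stood 2.42-fold below WT (log2 ratio -1.27, interval -1.36 to -1.19). These 3 ligands were thus above WT and this receptor below it. Among Wnt genes (median 0.47) 4 of 19 were higher and none lower, led by the secreted modulator Sfrp2 with 2 (WT), 133 (KO) and 95 (rescue) counts (log2 ratio 5.28, interval 3.71 to 8.66). Wnt4 had 14, 30 and 36 counts, and the receptor Fzd4 had 43, 105 and 92.

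Interferon and cytokine genes were higher in part. Ifi44, an interferon-induced gene, had 213 (WT), 1187 (KO) and 978 (rescue) counts (4.67-fold), and Ifih1, a sensor of double-stranded RNA, had 426, 1005 and 866 (2.07-fold). Of 28 interferon genes 3 were 2-fold or more above WT and none below, beside 4.59% higher and 3.07% lower over all genes. The interferon median was 0.35. Among cytokines and chemokines (median 0.41) 5 of 21 were higher and 1 lower. Ccl9 had 46, 559 and 406 counts (8.91-fold, log2 ratio 3.16, interval 2.73 to 3.64), Cxcl12 had 150, 572 and 501, and the oncostatin M receptor Osmr had 247, 1480 and 1017. Lif, a cytokine that keeps myoblasts dividing, was the lower one, with 117, 45 and 40 counts.

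Hsd11b1, the enzyme that regenerates active glucocorticoid, had 32 (WT), 746 (KO) and 684 (rescue) counts and was 21.5-fold above WT (log2 ratio 4.42, interval 3.93 to 5.01). It was the 1 of 18 genes past 2-fold in the list of FoxO targets and muscle atrophy genes, whose median was 0.14. The ubiquitin ligases of atrophy stayed under 2-fold. Fbxo32, atrogin 1, had 1765, 2663 and 2523 counts, and Trim63, MuRF1, had 438, 430 and 569.

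Nuclear genes of respiration lay close to WT in rescue. The 36 complex I subunits had a median of 0.05, against -0.28 in KO, and their log2 ratios ran from -0.21 to 0.32. Ndufb9 had 2333 (WT), 2324 (KO) and 2858 (rescue) counts at the upper end, and Ndufs5 had 863, 634 and 730 at the lower end. Citric acid cycle genes had a median of 0.07 over 30, and none passed 2-fold. Among 8 cytochrome oxidase isoform genes (median -0.02) Cox6a2, the heart and muscle isoform of subunit VIa, was the exception, with 305, 1053 and 1264 counts (4.22-fold, log2 ratio 2.08, interval 1.9 to 2.26). Its exons overlap Itgad on the other strand. The ubiquitous partner Cox6a1 had 2347, 1601 and 1909 counts.

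Transcript length moved with the KO ratio and not with the rescue ratio. Among protein-coding genes split by length, KO and rescue had medians of -0.21 and 0.03 in the shortest decile (1079 genes, median 991 bases) and of 0.20 and 0.00 in the longest decile (1079 genes, median 9915 bases). Complex I and cytochrome oxidase isoform genes are short, at medians of 922 and 602 bases, and the fast sarcomere list is longer, at 2887. The part of length in the distance between KO and rescue was not tested. Ratios of rescue to WT ran only from -0.03 to 0.03 over the 10 deciles.

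**Figure D4:**
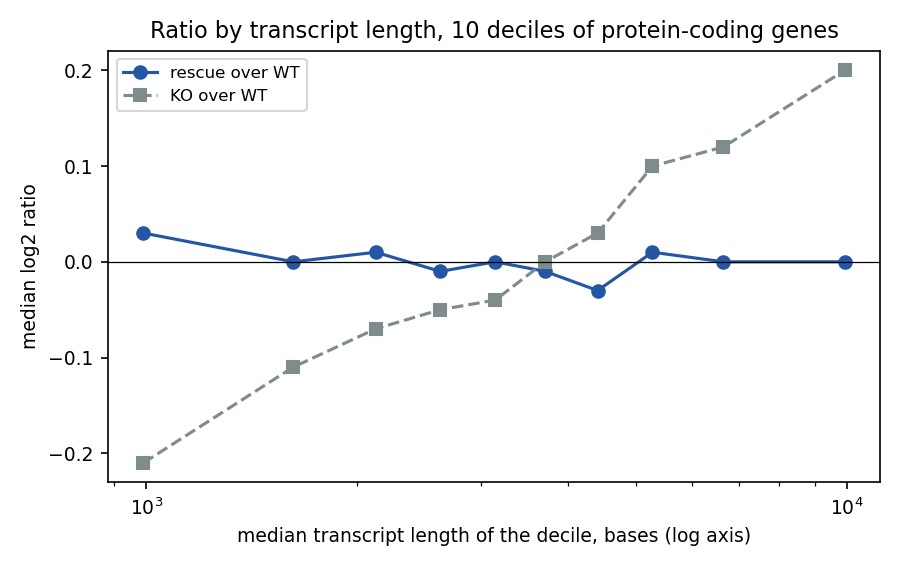
Median log2 ratio over WT (vertical axis) in 10 deciles of protein-coding genes ordered by transcript length, at the median length of each decile in bases (log axis), for rescue (solid line) and KO (dashed line). The KO line climbs from -0.21 to 0.20, and the rescue line stays between -0.03 and 0.03.

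Genes of fatty acid uptake and oxidation were near WT apart from 5 of 28. Lpl, lipoprotein lipase, had 1113 (WT), 4195 (KO) and 3623 (rescue) counts (3.32-fold, log2 ratio 1.73, interval 1.63 to 1.83). Acot2, a mitochondrial thioesterase, had 115, 535 and 437 counts (3.86-fold), and with Cd36 and Ucp3 these made up the 4 higher members. Ucp2, the widely expressed uncoupling protein, was the lower one, with 516, 192 and 197 counts (log2 ratio -1.36, interval -1.61 to -1.12). The list's median was 0.08. Ppargc1a, the coactivator PGC-1alpha that promotes mitochondrial biogenesis, had 80 (WT), 45 (KO) and 33 (rescue) counts (2.36-fold lower, log2 ratio -1.24, interval -1.88 to -0.65), and the nuclear receptor Esrrg had 5, 51 and 37. These were the 2 of 19 genes of fission, fusion and biogenesis past 2-fold, around a median of 0.04. Fis1, a fission adaptor, had 1561, 896 and 1208 counts, and Opa1, which fuses inner membranes, had 1514, 2081 and 1942.

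Glycolysis and energy-buffering genes came near WT in rescue with exceptions. Glycolysis genes had a median of -0.13 over 26, beside -0.43 in KO. Eno3, muscle enolase, had 9489 (WT), 4214 (KO) and 6370 (rescue) counts (1.46-fold below WT), and Pgm5, a phosphoglucomutase relative at cell junctions of muscle, had 1977, 310 and 944 (2.05-fold, log2 ratio -1.04). The higher members were Ldhb, the heart lactate dehydrogenase, with 131, 242 and 273 counts, and Pfkfb3, which makes the activator of phosphofructokinase, with 121, 257 and 241. Ckm, muscle creatine kinase, had 4406, 1424 and 3527 counts (1.22-fold below WT), and Mb, myoglobin, had 2368, 679 and 1602 (1.45-fold below). Gamt, which makes creatine, did not follow and had 835, 298 and 340 counts (log2 ratio -1.27, interval -1.45 to -1.08). The energy-buffering list had a median of -0.10 in rescue and -0.90 in KO. Small heat shock proteins had a median of -0.19, with none of 8 past 2-fold. Hspb7, a cardiac and skeletal form, had 341, 148 and 464 counts.

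Sterol synthesis genes were lower together. Of 21 measured, 20 lay below 0, the median was -0.62 (-0.80 in KO) and 1 passed 2-fold. Idi1, of isoprenoid synthesis, had 800 (WT), 366 (KO) and 412 (rescue) counts (1.9-fold lower), and Insig1, which senses sterols, had 1856, 942 and 1080 (1.68-fold lower). Over 15 genes of fatty acid synthesis the median was -0.22, with 10 below 0 and 5 above. In that list 1 gene was 2-fold or more above WT, at a log2 ratio of 1.61, and none was 2-fold below. Dgat2, with 127, 207 and 219 counts, was also above WT. Fasn, fatty acid synthase, had 4775, 3208 and 2891 counts, and Scd2, a desaturase, had 29360, 18133 and 18810. The sterol regulatory core TCACNCCAC was found upstream of 1 of 14 sterol genes with a window (Hmgcs1, 7.14%), against 1.2% of all kept genes with a window. That share rests on 1 gene, and the list member past 2-fold had no window. The list holds genes of sterol synthesis, so its share says nothing about KO or rescue. A match is neither a binding site nor a cause.

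DNA replication and mitosis genes were lower as well, with 31 of 32 below 0, a median of -0.48 (-0.49 in KO) and 4 past 2-fold. Rrm2, which makes deoxynucleotides, had 3081 (WT), 1303 (KO) and 1474 (rescue) counts (2.05-fold lower, log2 ratio -1.04), and Ccne2, cyclin E2, had 204, 71 and 82. Tyms, thymidylate synthase, had 287, 157 and 134 counts and was lower in rescue than in KO. The proliferation marker Mki67 had 1697 counts in WT and 1292 in rescue, so its RNA was present in both. The list of cell cycle exit, which also holds the D cyclins Ccnd1, Ccnd2 and Ccnd3, had a median of -0.10. Gadd45a, with 2328, 4523 and 4777 counts, was the 1 of 15 past 2-fold.

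Immediate early genes had a median of -0.28, with 4 of 21 lower and none higher. Egr1 had 1013 (WT), 542 (KO) and 444 (rescue) counts (log2 ratio -1.16, interval -1.33 to -1.0), Klf4 had 3179, 1404 and 1345, and Klf2 had 664, 352 and 289. Fos, at 59, 30 and 27 counts, was the other. For Egr1 and Klf2 KO was under 2-fold from WT and rescue past it, but the counting intervals of the 2 ratios overlapped. The KO log2 ratios were -0.88 for Egr1 (interval -1.03 to -0.72) and -0.89 for Klf2 (interval -1.08 to -0.7). Klf2 in rescue had a log2 ratio of -1.17 (interval -1.38 to -0.97). Metallothionein and antioxidant genes had a median of -0.17 over 18, with 1 higher and 3 lower. Mt1, a metal-binding metallothionein, had 644, 215 and 293 counts (log2 ratio -1.11), and Gpx3, a secreted glutathione peroxidase, had 72, 11 and 22. Slc7a11, the cystine exchanger, was the higher one, with 34, 115 and 81 counts, and it also belongs to the transporter list. Clock genes (median 0.02, none of 16 past 2-fold) and hypoxia targets (median 0.06, with Vegfa higher and Ankrd37 lower among 15) were near WT.

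Ion channels and pumps held both some of the highest and some of the lowest ratios. Kcnj15, an inward rectifier, had 4 (WT), 239 (KO) and 166 (rescue) counts (37.7-fold, log2 ratio 5.24, interval 4.02 to 7.30). Of 10 measured potassium channels 4 were 2-fold or more above WT and none below (median 0.63), and their summed level was low, at 80.5 CPM in WT, 135 in KO and 133 in rescue. Atp1b1, the beta subunit of the sodium pump, had 937, 2190 and 2437 counts (2.65-fold, log2 ratio 1.41, interval 1.3 to 1.52). Scn4a, the sodium channel of the muscle action potential, had 431, 893 and 883 counts (2.09-fold). Ano5, a membrane-repair protein mutated in muscular dystrophy, had 175, 3 and 3 counts, and Slc8a1, the sodium-calcium exchanger, had 117, 26 and 23. In the list of sodium, chloride and calcium channels and pumps 3 of 16 were higher and 2 lower, with a median of -0.05.

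Several genes expressed in WT had almost no counts in KO or in rescue. Ppp1r14c, an inhibitor of protein phosphatase 1, had 349 counts in WT and 0 in both others, at least 114-fold lower in rescue when it is set to 3 counts. Cd55, a regulator of complement, had 238, 1 and 0 counts (at least 77.8-fold lower). Magea13 had 267, 0 and 1 counts (log2 ratio -7.45, interval -13.34 to -5.54), and Gprc5c, an orphan receptor, had 498, 1 and 4 (log2 ratio -6.76, interval -8.81 to -5.57). All of these genes had 4 or fewer counts in rescue. Exons of Ppp1r14c overlap Gm26752 and those of Cd55 overlap Gm16083, each on the other strand. Less extreme genes of this kind were Ctrb1, a chymotrypsinogen (661, 31 and 46 counts), Mgam, maltase-glucoamylase (1767, 264 and 273 counts), and Bcam, a laminin receptor (250, 22 and 44 counts).

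Neuronal markers were lower in both libraries. In that list 5 of 12 genes were measured, 2 past 2-fold below WT, and the summed level was 215 CPM in WT, 107 in KO and 124 in rescue, with Snap25 and Rbfox3 at 0. Nefm, a neurofilament, had 172, 16 and 25 counts, and Map2, a microtubule protein, had 1200, 597 and 542. Nefm and Nefl overlap each other on opposite strands.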

How the data were processed

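RNA from 3 C2C12 libraries, 1 per group, was extracted with TRIzol and sequenced with a DNBSEQ-G400RS kit, per the labels' protocols. The submitters' processing notes name cutadapt 1.9.1, HISAT2 2.2.1, featureCounts 2.0.0 and the mouse build GRCm39 (mm39). Strand and multi-mapping settings were not given in the sources used here, so counts of overlapping, antisense and near-identical genes are uncertain. Per the file headers, each deposited table held raw counts, which were whole numbers per transcript row. The deposited RPKM and TPM columns, which the authors computed per transcript, were not used. There were 139023 transcript rows of 46316 gene symbols. In 5388 genes with several mRNA rows the count of the lowest row was at a median 98.0% of the highest, so rows were not added.

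Scaling used TMM factors from edgeR 4.0.16 under R 4.3.3 (1.01 for WT, 1.0 for KO, 0.989 for rescue). Genes with a mean CPM of 1 or more over the 3 libraries were kept, 11830 of 13382 protein-coding. Log2 ratios were taken after adding 0.5 to each count, and printed folds are those ratios on a linear scale. A gene was called higher or lower at 2-fold. With 1 library per group no p-value, SD or SE was computed. Intervals are exact conditional (Clopper-Pearson) 95% counting intervals in Python 3.11.15 with scipy 1.17.1. They reflect counting error alone, and reads that carry no molecular identifier need not stem from separate molecules. A fold against 0 counts was taken against 3 counts instead and is a lower limit. The script was checked on simulated data.

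The comparison, the members and the 53 gene lists (1061 of 1067 entries matched, 876 measured) were chosen with earlier results of these data known. Genes were named if they were among the 25 highest or 25 lowest ratios with 200 or more counts in the higher library, overshot with 100 or more counts, were list members past 2-fold or among the 6 largest ratios of a list with 20 or more counts, or belonged to a short fixed set. Others are said to be chosen after their values were seen. Only some of the genes selected are printed, and some are not reported here. Motifs were searched in RefSeq promoter windows of GRCm38.p6, which is not the build of the counts. Protein genes encoded in mitochondrial DNA are not analysed here. Alternatives changed the scaling, the low-count filter, the transcript row, the added count, transcript length and the gene type.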

Additional observations from a re-analysis of the deposited data

How the results depend on the processing

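Each difference rests on 1 library per side, and 530 of the 1025 genes past 2-fold had under 100 counts in the higher library. The number of genes past 2-fold followed the low-count filter, by its construction, since it sets which genes are tested. With no filter 3431 genes were at least 2-fold higher and 3292 lower, and with a mean CPM of 5 or more there were 325 and 163. The share of higher genes among those past 2-fold was 59.9%, and ran from 51.0% with no filter to 66.6% with the stricter one. With no filter and with the stricter one, KO was also 2-fold on the same side in 3991 and 405 genes (801 as reported), under 2-fold on the same side in 2060 and 76 (206 as reported), and on the other side of WT in 672 and 7 (18 as reported). With all transcript rows of a gene summed, the 206 became 133, and the cause was not tested. The fast sarcomere median of 0.40 was 0.37 with library size alone and 0.331 with the length trend removed. Without the filter the median of proteases was 0.198 (0.41 as reported), that of potassium channels 0.00319 (0.63 as reported) and that of adipocyte markers 0.97 (0.327 as reported). In all, 505 of the other values of list medians stayed within the counting interval of the genes at the middle of the list and 5 did not. Of 205 named genes past 2-fold, every one kept its direction in each setting that gave a value. Scaling by library size alone took 7 of them under 2-fold and shifted the median of all genes to -0.02.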

Other observations

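Genes in the following groups were chosen after their values were seen. Transcripts of the imprinted Snrpn locus were low in both KO and rescue. Snrpn, a splicing protein gene, had 136 (WT), 13 (KO) and 16 (rescue) counts (log2 ratio of rescue to WT -3.02, interval -3.91 to -2.31). Snurf, which overlaps it, had 135, 13 and 15, and the long noncoding host Snhg14 had 150, 15 and 19. The 3 share exons or sequence, so they are 1 observation. Members of the Serpinb9 cluster, which encode inhibitors of granzyme B and related proteases, lay on both sides of WT. Serpinb9b had 2790, 613 and 604 counts (4.53-fold lower), whereas Serpinb9e had 33, 55 and 88 and Serpinb9g had 46, 83 and 123, both past 2-fold above WT. The Ly6 surface proteins were divided as well, with Ly6c1 at 2738, 697 and 851 counts, Ly6c2 at 680, 60 and 83, and Ly6g2 at 32, 28 and 155. Both clusters hold close copies, and the handling of reads that match several copies is unknown here.

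Some complement genes were higher in both libraries, whereas the complement regulator Cd55 was nearly silent in both, with 238 (WT), 1 (KO) and 0 (rescue) counts. C1s1, a protease of the classical pathway, had 215 (WT), 1188 (KO) and 851 (rescue) counts (4.03-fold), and its partner C1ra had 186, 521 and 464. Cfb, factor B of the alternative pathway, had 72, 337 and 349 counts (4.92-fold). The 2 main genes of iron traffic across the cell surface moved apart. Tfrc, the transferrin receptor that brings iron in, had 2641, 971 and 1014 counts (2.55-fold lower, log2 ratio -1.35, interval -1.46 to -1.25), and Slc40a1, the exporter ferroportin, had 281, 761 and 709 (2.57-fold higher, log2 ratio 1.36, interval 1.16 to 1.57). Among genes almost silent in WT, the gap junction gene Gjd2 had 3, 78 and 112 counts, and the G protein subunit Gng2 had 3, 154 and 129. A few muscle genes that were low in KO reached or passed the WT level in rescue. Nmrk2, a muscle kinase of NAD synthesis, had 228, 70 and 284 counts (log2 ratio 0.34, interval 0.09 to 0.6), and Popdc2, a cyclic AMP binding membrane protein, had 181, 56 and 210 (log2 ratio 0.24, interval -0.05 to 0.54).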
